A study of Arabidopsis thaliana with 12 samples.

Results

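Class III peroxidases are secreted plant haem enzymes, and 56 of their genes, given as a fixed list of Arabidopsis gene identifiers, were followed here among the 33557 genes measured. All 56 had a value in each of the 12 libraries, and 50 were high enough to be tested. RNA came from roots of Arabidopsis thaliana Col-0, a wild-type accession with no transgene or mutation. Seedlings grew for 7 days on Johnson's medium with 1 mM phosphate and then for 2 days without phosphate. They were then moved to phosphate-free liquid medium that either held 30 µM arsenate, As(V), or held none (mock), and roots were taken after 1.5 h, 6 h and 24 h. Each of the 6 groups had 2 libraries, each from 60 pooled seedlings. Every group, mock included, was therefore without phosphate, and no phosphate-fed root was among the samples. The labels do not say whether the 2 libraries of a group came from separate cultures, so the tests measure the spread between these libraries, which may be technical.

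These enzymes work mostly in the cell wall and the apoplast. With hydrogen peroxide they oxidise monolignols, tyrosines of extensins and other phenolics, which cross-links and stiffens the wall. They can also produce reactive oxygen species, which are needed for wall loosening, for root hair growth and for the oxidative burst of defence. Arabidopsis roots express a large share of the family, and several members arose as tandem copies that still resemble each other closely.

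Closely alike copies are shown first, because reads shared between them limit what can be measured. Among 1540 pairs of members, coding sequences matched at a median of 51.8% of aligned positions, and the lowest pair matched at 45.1%. The first 90 coding bases of the closest pair, AT1G05240 and AT1G05250, and of the tandem pair AT2G38380 and AT2G38390 are given below, with stretches of equal length near the start of PRXCA (AT3G49110) and PRXCB (AT3G49120) and at the start of AT4G37520 and AT4G37530. All are from the RefSeq assembly TAIR10.1, read 5′ to 3′ on the coding strand, and capitals mark bases that differ from the partner gene.
AT1G05240, chr1:1521202-1521291, plus strand: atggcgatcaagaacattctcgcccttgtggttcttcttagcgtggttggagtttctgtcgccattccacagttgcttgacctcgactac
AT1G05250, chr1:1527080-1527169, minus strand: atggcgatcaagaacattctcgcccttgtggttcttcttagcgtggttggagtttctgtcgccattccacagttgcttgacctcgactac
PRXCA, chr3:18200736-18200825, plus strand: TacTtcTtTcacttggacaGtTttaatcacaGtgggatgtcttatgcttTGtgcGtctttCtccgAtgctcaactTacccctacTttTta
PRXCB, chr3:18207839-18207928, plus strand: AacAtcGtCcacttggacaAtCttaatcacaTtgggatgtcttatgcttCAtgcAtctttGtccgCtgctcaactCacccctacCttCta
AT2G38380, chr2:16076443-16076532, plus strand: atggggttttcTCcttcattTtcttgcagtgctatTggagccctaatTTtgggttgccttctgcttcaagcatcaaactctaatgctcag
AT2G38390, chr2:16079726-16079815, plus strand: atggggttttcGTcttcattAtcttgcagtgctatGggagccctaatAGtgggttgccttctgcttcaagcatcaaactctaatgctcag
AT4G37520, chr4:17631704-17631793, plus strand: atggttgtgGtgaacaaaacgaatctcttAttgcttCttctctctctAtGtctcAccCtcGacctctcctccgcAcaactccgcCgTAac
AT4G37530, chr4:17634786-17634875, plus strand: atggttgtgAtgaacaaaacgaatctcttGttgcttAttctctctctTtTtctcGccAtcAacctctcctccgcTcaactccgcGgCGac

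AT1G05240 and AT1G05250 lie on opposite strands of chromosome 1 and have identical coding sequences of 978 bases. Of the 50-base windows of their exons, 58.9% in AT1G05240 and 100% in AT1G05250 recur elsewhere in the genome, so a 50-base read from them often has more than 1 possible origin. Both were listed near 0, at 0 to 5 estimated reads a library, and their true level cannot be read from these files. The tested members were different. No tested member had more than 7.5% of its windows repeated, and 46 of the 56 members had none. The 15 differing bases of 90 between PRXCA and PRXCB, the 12 between AT4G37520 and AT4G37530 and the 6 between AT2G38380 and AT2G38390 show how such pairs are told apart by short reads.

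Values are FPKM as the authors deposited them, a level scaled for transcript length and library size, and changes are on the log2(FPKM + 1) scale, which understates changes of low genes. Estimated reads in genes ran from 12.86 M to 16.01 M a library. The deposited scaling differed between groups: the library size it used was 0.974 to 1.028 times the reads in genes in mock, 0.626 and 0.642 times in As(V) at 1.5 h, 0.436 and 0.451 times at 6 h and 1.103 and 1.042 times at 24 h. One read in a gene of 1500 exon bases was thus worth 0.0454 to 0.1237 FPKM. All 8 root markers checked, among them PYK10, CASP1 and LRX1, were detected, with a summed level of 4677 to 7215 FPKM in mock. That sum was 2911 to 3352 FPKM in As(V) at 1.5 h, 1454 to 1612 FPKM at 6 h and 695 to 783 FPKM at 24 h, most of it PYK10. WOX5 went the other way as deposited. In order of time its means were 9.75, 3.87 and 1.83 FPKM in mock and 14.6, 6.99 and 3.29 FPKM with As(V). Its estimated reads were 84 and 57 in mock against 78 and 53 with As(V) at 1.5 h. They were 37 and 29 against 22 and 27 at 6 h, and 17 and 14 against 29 and 26 at 24 h. The rises of WOX5 at 1.5 h and 6 h thus depend on the scaling. The other markers had lower means with As(V) at each time, SCR by little at 6 h (15.2 to 12.6 FPKM). The 6 shoot markers summed to 28.5 to 172.9 FPKM, nearly all of it from RBCS1A and RCA. In whole roots, fewer cells of a type and less RNA per cell cannot be told apart, and the part of either in the changes below was not tested.

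Peroxidases made up a smaller share of the root's reads under As(V) at every time. Their share does not use the deposited scaling, but it amounts to setting all libraries to equal totals. It was 1.455% and 1.564% of reads in genes in the 1.5 h mock libraries and 0.536% and 0.512% in the As(V) libraries. The 6 h mock libraries both held 1.221%, against 0.206% and 0.214% with As(V). The 24 h mock libraries held 1.604% and 1.67%, against 0.466% and 0.415%. All 6 As(V) libraries lay below all 6 mock libraries. As deposited, the family's summed FPKM went from 11676 and 12696 in mock to 6950 and 6449 with As(V) at 1.5 h. At 6 h it went from 9343 and 9292 to 3913 and 3896. Those 1.5 h and 6 h falls were smaller than the falls in share. At 24 h the sum went from 12515 and 13181 to 3357 and 3152. The 5 highest members held 42.9% to 48.4% of the family's summed FPKM in every library, and the highest was AT5G64100 or PRXR1 (AT4G21960) throughout.

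**Figure D1:**
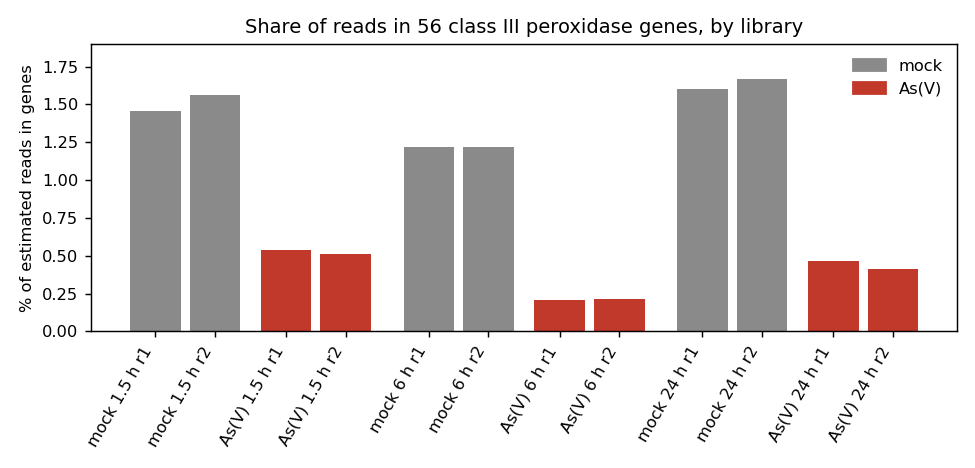
Share of estimated reads in genes that fell in the 56 peroxidase genes, in percent, 1 bar a library (r1 and r2 are replicates; grey mock, red As(V)). The mock libraries sit between 1.221% and 1.67%, and the As(V) libraries between 0.206% and 0.536%.

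In mock roots, 23 members had a median above 100 FPKM over the 6 libraries, 17 lay from 10 to 100 FPKM, 9 from 1 to 10 FPKM and 7 at or below 1 FPKM. AT3G32980, a close relative of the horseradish-type enzymes PRXCA and PRXCB, was the highest by median, at 1120 to 1544 FPKM. PRXR1 followed at 1005 to 1826 FPKM and AT5G64100 at 645 to 2196 FPKM. The ranges of these 3 overlap over the pooled times, but within each time their libraries did not. AT5G64100 was the highest at 1.5 h and PRXR1 at 6 h and 24 h, so the order depends on the time. Next came AT2G38380 at 541 to 728 FPKM, AT2G38390 at 455 to 592 FPKM and AT5G17820 at 441 to 583 FPKM, again with overlapping ranges. The 6 members too low to test were AT1G05240, AT1G05250, AT3G50990, AT4G31760, AT5G19880 and AT5G58390.

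Most of the family fell with As(V), and a small group rose. At 1.5 h, limma called 35 of the 50 tested members lower and 6 higher at an adjusted p (Benjamini-Hochberg over all 19983 tested genes) under 0.05. Among all tested genes, 33.2% were called lower and 29.8% higher, 63.0% in all. At 6 h, 31 members were lower and 7 higher, against 37.0% and 35.5% of all genes, 72.5% in all. At 24 h, 41 members were lower and 3 higher, against 36.0% and 29.1% of all genes, 65.1% in all. In order of time, the members had median changes of -0.93, -1.25 and -1.60, and all tested genes had -0.09, -0.12 and -0.06. The As(V) and mock libraries did not overlap for 45, 47 and 46 of the 50 members at these times. Over all tested genes, 83.1%, 89.0% and 82.3% did not overlap, beside 63.0%, 72.5% and 65.1% called.

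Scaling moved the early counts. With FPKM rescaled to equal library totals, the median of all genes itself shifted to -0.62 at 1.5 h and -1.06 at 6 h, and 15.3% of all genes were higher and 61.4% lower at 1.5 h, 16.4% and 68.9% at 6 h. Members then stood at 4 higher and 41 lower at 1.5 h, with a median of -1.55, and at 3 higher and 43 lower at 6 h, with a median of -2.44. At 24 h this scaling left 3 higher and 41 lower, with a median of -1.52 beside 0.03 for all genes. The members' median thus lay below that of all genes by at least as much as with the deposited scaling at 1.5 h and 6 h.

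**Figure D2:**
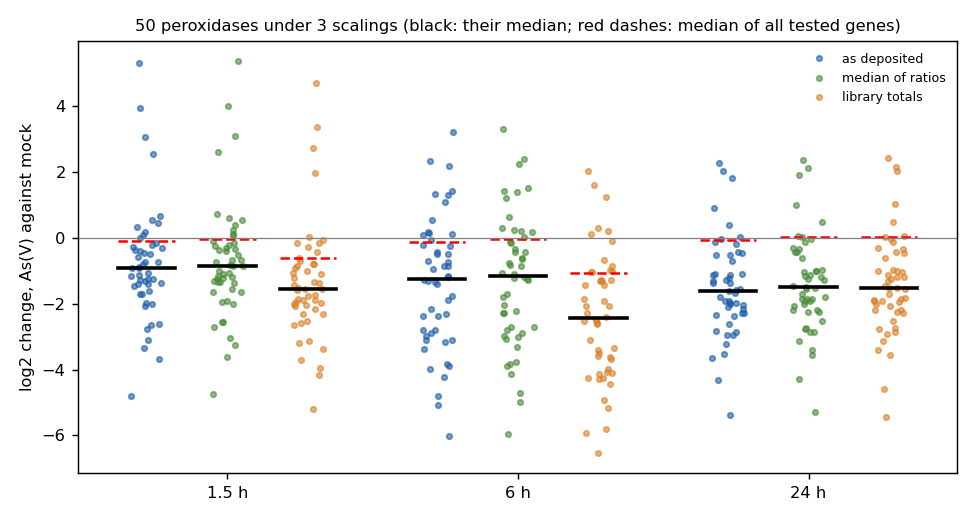
Log2 change of FPKM + 1, As(V) against mock, of the 50 tested peroxidases (points) at 3 times under the deposited scaling, median-of-ratios scaling and equal library totals. Black lines mark the members' median, -0.93, -1.25 and -1.60 as deposited, and red dashes the median of all tested genes, which lies above it in all 9 columns.

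By time, 27 of the 50 members were lower at all 3 times, and 2, AT5G39580 and AT1G14550, were higher at all 3. The shares of all tested genes with these patterns were not counted. They cannot exceed the smallest share at a single time, 33.2% lower at 1.5 h and 29.1% higher at 24 h. PRX52 (AT5G05340), an enzyme of lignin synthesis, and PA2 (AT5G06720), a peroxidase induced by wounding, passed at no time, both at or below 3.43 FPKM in every library. PRX52 was lower at 6 h with equal library totals (-1.27, adjusted p = 0.0108), as was PA2 at 1.5 h and 6 h (-0.71 and -1.04). As deposited, 27 members had their lowest change at 24 h, while 19 had it at 6 h and 4 had it at 1.5 h. Such counts were not made over all tested genes. The time of the lowest change depends on the scaling. With equal library totals, the members' median change was lower at 6 h (-2.44) than at 24 h (-1.52). The median of all tested genes moved in the same way (-1.06 against 0.03). Over the 50 members, the changes at 1.5 h and 6 h, which share no library, had a Pearson correlation of 0.86. That correlation was 0.62 between 1.5 h and 24 h and 0.55 between 6 h and 24 h. These describe genes of the same 12 libraries and carry no test.

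**Figure D3:**
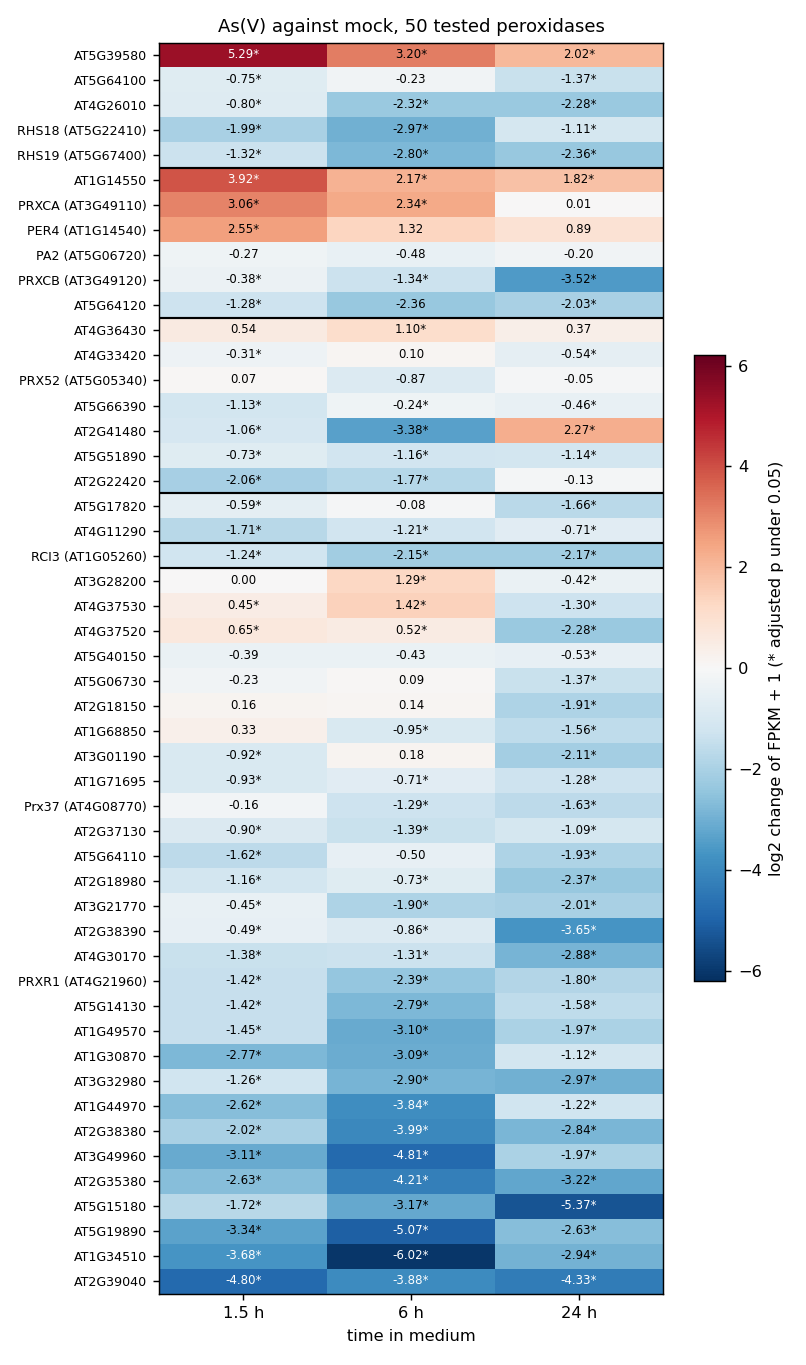
Log2 change of FPKM + 1, As(V) against mock, for the 50 tested peroxidases at 1.5 h, 6 h and 24 h, with stars for adjusted p under 0.05. Black lines separate, from the top, root hair growth, oxidative burst and defence, lignin and xylem, the UPB1 targets, RCI3 and all other members. Blue (lower) fills most rows, and AT5G39580 and AT1G14550 are red in every column. The 6 h value of AT2G41480, listed at 0 in both As(V) libraries, depends on the pseudocount.

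Peroxidases of root hair growth are needed for hair elongation, where they act on extensins and on reactive oxygen species at the tip. Of 6 such members, 5 were tested. They split 4 lower and 1 higher at 1.5 h, 3 and 1 at 6 h and 4 and 1 at 24 h. Beside them, 33.2% of all tested genes were lower and 29.8% higher at 1.5 h, 37.0% and 35.5% at 6 h, and 36.0% and 29.1% at 24 h. AT4G26010, which acts in hair growth together with RHS19, stood at 371 and 416 FPKM in mock and 233 and 219 FPKM in As(V) at 1.5 h. It stood at 379 and 400 FPKM against 72.9 and 82.0 FPKM at 6 h, and at 351 and 360 FPKM against 77.4 and 67.5 FPKM at 24 h. Every As(V) library was below every mock library, and the fall deepened from -0.80 ± 0.08 (SE, adjusted p = 6.39e-06) at 1.5 h to -2.32 ± 0.09 (adjusted p = 9.42e-10) at 6 h.

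RHS19 (AT5G67400), a gene named for its root-hair-specific expression, also fell at every time. It went from 416 and 446 FPKM to 182 and 163 FPKM at 1.5 h, from 414 and 433 FPKM to 55.8 and 64.4 FPKM at 6 h and from 400 and 425 FPKM to 82.5 and 76.5 FPKM at 24 h. The changes were -1.32 ± 0.08, -2.80 ± 0.09 and -2.36 ± 0.08, and that at 24 h was 0.44 ± 0.11 above that at 6 h (adjusted p = 0.0065). Its closest relative in sequence, AT3G49960, with 78.6% coding identity, had larger falls at 1.5 h and 6 h, with changes of -3.11 and -4.81, and -1.97 at 24 h; the difference between the genes was not tested. RHS18 (AT5G22410), another root-hair-specific gene, stood at 81.3 and 81.2 FPKM in mock against 19.2 and 20.3 FPKM at 1.5 h, and at 84.0 and 91.3 FPKM against 9.02 and 11.7 FPKM at 6 h. At 24 h its mock level was itself lower, 37.5 and 40.6 FPKM, against 19.8 and 15.3 FPKM with As(V), and the change was -1.11 ± 0.11 (adjusted p = 5.57e-06). Among other hair genes, SHV2 (COBL9), needed for hair tip growth, stood at 25.1 to 33.0 FPKM in mock and at 5.36 to 15.9 FPKM with As(V), and LRX1, a hair wall protein, at 98.6 to 115.9 FPKM and 34.7 to 62.5 FPKM. RHD2, the NADPH oxidase of hair growth, did not fall by the test at any time as deposited, with changes of -0.10 (adjusted p = 0.144), 1.04 and 0.05 (adjusted p = 0.416), but its 1.5 h change was -0.71 with equal library totals (adjusted p = 7.63e-07). Whether hair cells or their RNA were fewer was not tested.

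AT5G64100, which acts in root hairs at low temperature, is among the most abundant members. It stood at 2000 and 2196 FPKM in mock at 1.5 h and at 1287 and 1208 FPKM with As(V), a change of -0.75 ± 0.11. At 6 h it stood at 645 and 655 FPKM in mock against 557 and 552 FPKM, a change of -0.23 ± 0.12 that did not pass (adjusted p = 0.0969). With equal library totals that change was -1.44 (adjusted p = 3.63e-07), and in a fit of only the libraries compared it was -0.23 and passed (adjusted p = 0.00146). At 24 h it fell from 760 and 1035 FPKM to 344 and 343 FPKM.

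AT5G39580, known from the same cold response of root hairs and from defence, went the other way. It stood at 10.4 and 8.06 FPKM in mock and at 406 and 390 FPKM with As(V) at 1.5 h, a 43.1-fold ratio of means and a change of 5.29 ± 0.55 (adjusted p = 7.15e-05). The 6 h values were 7.64 and 12.9 FPKM against 93.1 and 108 FPKM, a change of 3.20 ± 0.53. At 24 h it stood at 5.41 and 26.0 FPKM against 57.3 and 46.3 FPKM, a change of 2.02 ± 0.50 (adjusted p = 0.00832). The groups did not overlap at any time, and at a pseudocount of 1 the change was the highest of the family at 1.5 h and 6 h. At a pseudocount of 0.1 that of PRXCA was higher at both times, as at 6 h (4.37 against 3.31). At 24 h the 2 mock libraries lay far apart, and in a fit of only the libraries compared the change of 2.01 did not pass (adjusted p = 0.122). The change was smaller by 3.28 ± 0.74 at 24 h than at 1.5 h (adjusted p = 0.0061).

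All 6 members of the oxidative burst, of wounding and of defence were tested. Of these, 3 were higher and 2 lower at 1.5 h, 2 and 1 at 6 h, and 1 and 2 at 24 h. All tested genes gave 29.8% higher and 33.2% lower at 1.5 h, 35.5% and 37.0% at 6 h, and 29.1% and 36.0% at 24 h. Several of the list's counts lie near those shares, such as 33.3% lower at 1.5 h and 33.3% higher at 6 h. At 1.5 h, median-of-ratios scaling left 3 higher and 0 lower, beside 32.3% and 30.6% of all genes. AT1G14550 and PER4 (AT1G14540), tandem neighbours on chromosome 1 that respond to microbial elicitors, are 72.3% identical in coding sequence. AT1G14550 stood at 2.78 and 2.97 FPKM in mock and 69.1 and 48.2 FPKM with As(V) at 1.5 h, a 20.4-fold ratio and a change of 3.92 ± 0.38 (adjusted p = 5.93e-06). It stood at 0.961 and 1.36 FPKM against 11.2 and 6.79 FPKM at 6 h, and at 0.165 and 2.51 FPKM against 7.72 and 4.58 FPKM at 24 h. Its changes at these times were 2.17 ± 0.58 (adjusted p = 0.00611) and 1.82 ± 0.65 (adjusted p = 0.0301), and all As(V) libraries exceeded all mock libraries of their time. The 6 h call was lost with equal library totals (1.23, adjusted p = 0.0651) and with a pseudocount of 5 (1.16, adjusted p = 0.0626).

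PER4 rose from 10.1 and 8.31 FPKM to 67.5 and 50.6 FPKM at 1.5 h, a change of 2.55 ± 0.49 (adjusted p = 0.00219). The 6 h values were 3.80 and 3.65 FPKM in mock and 15.0 and 7.79 FPKM with As(V), which did not pass (adjusted p = 0.165). At 24 h the mock libraries stood at 2.30 and 16.1 FPKM and both As(V) libraries at 12.7 FPKM, so the groups overlapped. Replicate 2 of mock at 24 h was the higher of the pair for AT5G39580, AT1G14550, PER4, PRXCA and AT5G64120 alike. Replicate 1 was the higher for the other members of the defence list, PRXCB (998 and 785 FPKM) and PA2 (2.52 and 1.44 FPKM).

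PRXCA and PRXCB are relatives of horseradish peroxidase and produce hydrogen peroxide in the apoplast during defence. They lie next to each other on chromosome 3 and match at 90.4% of coding positions, and their values went in opposite directions at 1.5 h and 6 h. PRXCA was close to 0 in mock, at 0.0651 and 0.0649 FPKM at 1.5 h, and stood at 8.77 and 7.09 FPKM with As(V), a change of 3.06 ± 0.46 (adjusted p = 1.69e-04). At 6 h it stood at 0.115 and 0.157 FPKM against 4.42 and 5.11 FPKM, and at 24 h at 0.271 and 0.909 FPKM against 0.557 and 0.564 FPKM, where the groups overlapped. PRXCB was abundant in mock. Its level was 418 and 537 FPKM against 373 and 355 FPKM at 1.5 h, 363 and 370 FPKM against 128 and 163 FPKM at 6 h, and 998 and 785 FPKM against 71.6 and 81.3 FPKM at 24 h. Its changes were -0.38 ± 0.15 (adjusted p = 0.046), -1.34 ± 0.16 and -3.52 ± 0.15 (adjusted p = 5.29e-08). The 1.5 h call of PRXCB was lost with median-of-ratios scaling (-0.31, adjusted p = 0.1), and the change was -1.01 with equal library totals. As 7.2% and 7.5% of their exon windows recur elsewhere, a small part of the reads of each may belong to the other.

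AT5G64120, a wall peroxidase of defence and growth, is the closest relative of AT5G39580 at 75.5% coding identity, and it was lower with As(V) at each time. It stood at 91.8 and 98.5 FPKM in mock and 40.4 and 36.9 FPKM with As(V) at 1.5 h, a change of -1.28 ± 0.48 (adjusted p = 0.0492). That call was lost with median-of-ratios scaling (adjusted p = 0.0595) and a pseudocount of 0.1 (adjusted p = 0.0675). The 6 h values were 41.2 and 38.1 FPKM against 8.87 and 5.33 FPKM, and the change of -2.36 ± 0.92 missed the threshold (adjusted p = 0.0505) but passed with equal library totals (-3.41, adjusted p = 0.00901). At 24 h it stood at 36.4 and 109 FPKM against 16.3 and 12.9 FPKM, a change of -2.03 ± 0.52 (adjusted p = 0.0106). No groups overlapped.

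**Figure D4:**
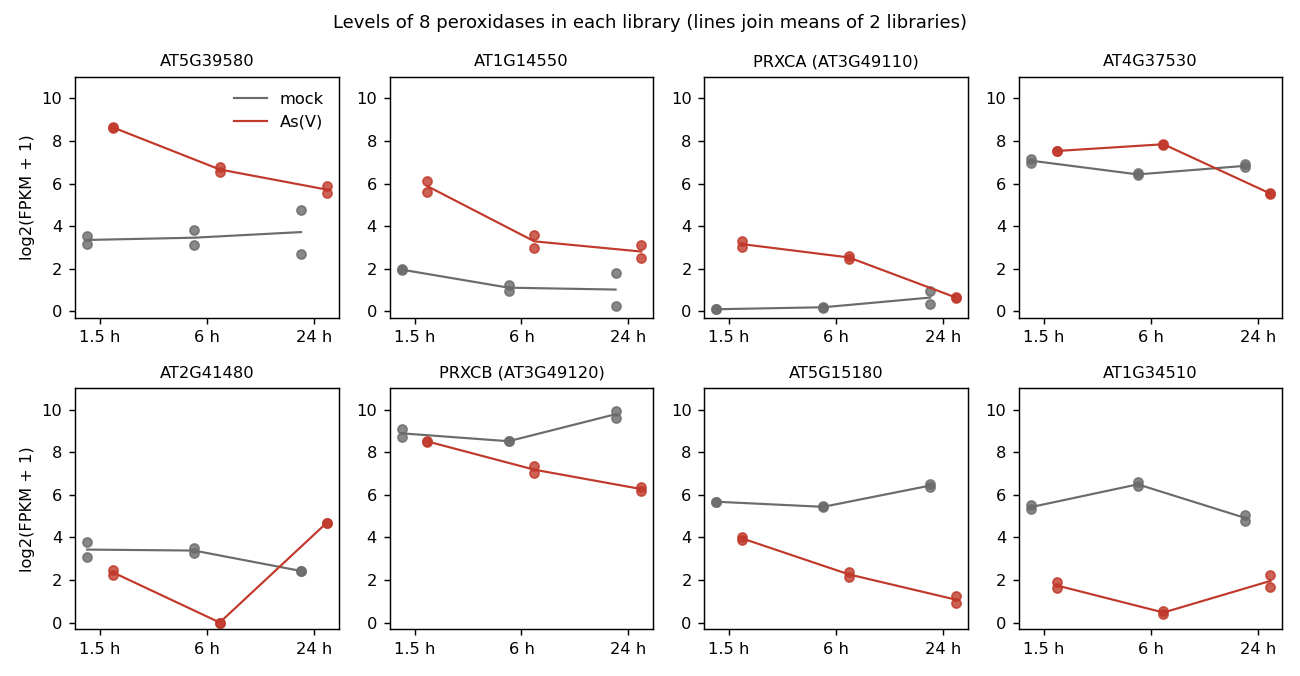
log2(FPKM + 1) of 8 peroxidases in each library (points) in mock (grey) and As(V) (red) at 1.5 h, 6 h and 24 h, with lines through the means of 2 libraries. AT5G39580 starts highest above mock at 1.5 h and declines, AT4G37530 crosses below mock at 24 h, and AT2G41480, listed at 0 at 6 h, crosses above it.

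Peroxidases linked to lignin and xylem polymerise monolignols in vessel and fibre walls. Of 8, 7 were tested, with 5 lower and 0 higher at 1.5 h, 4 and 1 at 6 h, and 3 and 1 at 24 h. The shares of all tested genes were 33.2% lower and 29.8% higher at 1.5 h, 37.0% and 35.5% at 6 h, and 36.0% and 29.1% at 24 h. At 24 h the list's 42.9% lower was near that share. AT5G66390, needed for normal stem lignin, stood at 172 FPKM in both mock libraries against 81.6 and 74.7 FPKM at 1.5 h, a change of -1.13 ± 0.10. Its later changes were smaller, -0.24 ± 0.10 (adjusted p = 0.0491) at 6 h and -0.46 ± 0.09 at 24 h. The 6 h change was -0.15 (adjusted p = 0.21) with median-of-ratios scaling and -1.44 (adjusted p = 1.73e-07) with equal library totals. AT5G51890, expressed in differentiating vessels, fell from 38.9 and 43.4 FPKM to 24.8 and 24.0 FPKM at 1.5 h, from 34.1 and 31.6 FPKM to 15.5 and 12.9 FPKM at 6 h, and from 44.0 and 49.6 FPKM to 21.3 and 19.9 FPKM at 24 h. AT2G22420, also tied to lignified tissue, changed by -2.06 and -1.77 at the first 2 times and stood at 7.42 and 8.19 FPKM against 6.99 and 7.13 FPKM at 24 h, which did not pass. AT4G33420 fell at 1.5 h and 24 h, with changes of -0.31 and -0.54.

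AT2G41480, which contributes to stem lignin, changed direction. It stood at 12.8 and 7.40 FPKM in mock and 4.55 and 3.76 FPKM with As(V) at 1.5 h, a change of -1.06 ± 0.28 (adjusted p = 0.00608). At 6 h it stood at 10.2 and 8.71 FPKM in mock and was listed at 0 in both As(V) libraries (called lower, adjusted p = 0.00728). At 24 h it stood at 4.29 and 4.43 FPKM in mock and at 25.0 and 24.6 FPKM with As(V), a 5.68-fold ratio and a change of 2.27 ± 0.20 (adjusted p = 2.59e-06). The difference between the 24 h and the 1.5 h change was 3.33 ± 0.34 (adjusted p = 1.1e-05). AT4G36430 was higher at 6 h, from 38.7 and 34.8 FPKM to 107 and 59.1 FPKM (1.10 ± 0.25, adjusted p = 0.00302), but with equal library totals the change was -0.090 (adjusted p = 0.726).

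The 2 members of the root growth zone that the transcription factor UPB1 represses, AT4G11290 and AT5G17820, were both lower at 1.5 h and 24 h. AT5G17820 stood at 543 and 583 FPKM in mock against 384 and 365 FPKM at 1.5 h, at 496 and 506 FPKM against 492 and 458 FPKM at 6 h (-0.08 ± 0.06, adjusted p = 0.277), and at 441 and 483 FPKM against 141 and 149 FPKM at 24 h. With equal library totals its 6 h change was -1.28 (adjusted p = 3.52e-09). AT4G11290 changed by -1.71, -1.21 and -0.71 at the 3 times. UPB1 itself was also lower, at 47.5 to 80.9 FPKM in mock and 13.3 to 43.6 FPKM with As(V). RCI3 (AT1G05260), known from cold and potassium deficiency, stood at 400 and 378 FPKM in mock against 183 and 147 FPKM at 1.5 h, at 268 and 248 FPKM against 52.5 and 62.5 FPKM at 6 h, and at 295 and 331 FPKM against 73.0 and 64.7 FPKM at 24 h. No groups overlapped, and the changes were -1.24 ± 0.11, -2.15 ± 0.12 and -2.17 ± 0.11.

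The other 33 members, most without an assigned role, gave 29 tested genes. Of these, 21 were lower and 2 higher at 1.5 h, 21 and 3 at 6 h, and 29 lower and none higher at 24 h. Among all tested genes, 33.2% were lower and 29.8% higher at 1.5 h, 37.0% and 35.5% at 6 h, and 36.0% and 29.1% at 24 h. The largest falls reached values near 0. AT2G39040 stood at 43.9 and 53.4 FPKM in mock and 0.846 and 0.716 FPKM with As(V) at 1.5 h, and was at or below 0.45 FPKM in all 4 later As(V) libraries. AT1G34510 stood at 83.6 and 95.1 FPKM in mock and 0.319 and 0.455 FPKM with As(V) at 6 h, a change of -6.02 ± 0.63 (adjusted p = 6.66e-06), and at 24 h it stood at 26.4 and 32.5 FPKM against 3.75 and 2.17 FPKM. AT5G15180 fell in steps, from 50.0 and 50.4 FPKM to 13.9 and 15.2 FPKM at 1.5 h, from 43.2 and 41.5 FPKM to 3.44 and 4.19 FPKM at 6 h and from 89.6 and 82.0 FPKM to 0.900 and 1.34 FPKM at 24 h. Its change of -5.37 ± 0.20 (adjusted p = 1.33e-08) at 24 h was the lowest of the family at that time with a pseudocount of 1, while with 0.1 that of AT2G39040 was lower (-7.29 against -6.18). Its mock level at 24 h was above that at 6 h (1.00 ± 0.06).

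AT5G19890 changed by -3.34, -5.07 and -2.63 at the 3 times. Its mock level rose from 106 and 104 FPKM at 6 h to 533 and 641 FPKM at 24 h, and its As(V) level from 1.62 and 2.80 FPKM to 107 and 82.0 FPKM. AT2G35380 changed by -2.63, -4.21 and -3.22, and AT1G30870 by -2.77, -3.09 and -1.12. The abundant members fell as well. AT3G32980 stood at 1409 and 1368 FPKM in mock against 616 and 547 FPKM at 1.5 h, at 1120 and 1135 FPKM against 121 and 186 FPKM at 6 h, and at 1304 and 1544 FPKM against 195 and 167 FPKM at 24 h. PRXR1 fell 2.69-fold, 5.26-fold and 3.50-fold in mean FPKM, with changes of -1.42 ± 0.07, -2.39 ± 0.07 and -1.80 ± 0.06.

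Neighbouring genes gave 8 tandem clusters with 18 members and 10 neighbour pairs. Besides PRXCA and PRXCB, 2 pairs of near copies are informative. AT2G38380 and AT2G38390, identical at 90.6% of coding positions, both fell at every time but with different timing. AT2G38380 stood at 691 and 674 FPKM against 175 and 159 FPKM at 1.5 h, at 541 and 553 FPKM against 21.6 and 51.1 FPKM at 6 h and at 642 and 728 FPKM against 105 and 85.3 FPKM at 24 h. AT2G38390 stood at 547 and 592 FPKM against 431 and 381 FPKM, at 461 and 456 FPKM against 232 and 275 FPKM and at 543 and 455 FPKM against 35.5 and 42.4 FPKM. The first was lowest against mock at 6 h (-3.99 ± 0.27) and the second at 24 h (-3.65 ± 0.12). The difference between the 2 genes was not tested.

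AT4G37520 and AT4G37530, identical at 92.4% of coding positions, both rose early and fell late. AT4G37530 stood at 143 and 125 FPKM in mock against 186 and 181 FPKM at 1.5 h, at 87.9 and 82.5 FPKM against 232 and 226 FPKM at 6 h, and at 107 and 118 FPKM against 45.9 and 44.2 FPKM at 24 h. Its changes were 0.45 ± 0.07, 1.42 ± 0.07 and -1.30 ± 0.08. AT4G37520 stood at 94.4 and 112 FPKM against 161 and 163 FPKM, at 95.8 and 97.1 FPKM against 153 and 127 FPKM, and at 217 and 263 FPKM against 44.9 and 52.1 FPKM. With equal library totals the early rises ended or turned, at -0.17 (AT4G37530, 1.5 h), 0.026 (AT4G37520, 1.5 h) and -0.67 (AT4G37520, 6 h, adjusted p = 1.3e-04), while AT4G37530 at 6 h kept 0.22 (adjusted p = 0.0225). AT3G28200, which rose at 6 h from 43.2 and 42.7 FPKM to 99.8 and 113 FPKM (1.29 ± 0.10), stood at 0.098 (adjusted p = 0.406) under that scaling. The 24 h falls of all 3 genes held under it.

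**Figure D5:**
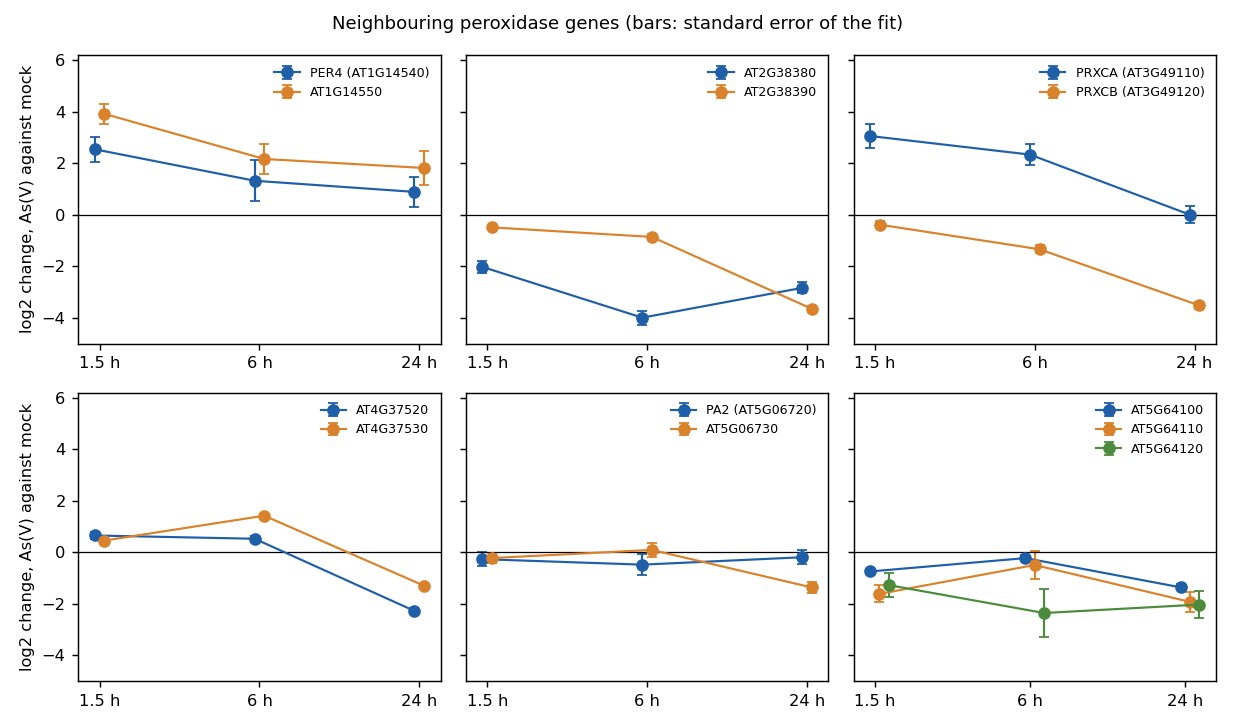
Log2 change of FPKM + 1, As(V) against mock, at 1.5 h, 6 h and 24 h for neighbouring peroxidase genes; points are fitted changes and bars their standard errors. PRXCA lies above 0 at the first 2 times while PRXCB lies below, and AT2G38380 is lowest at 6 h while AT2G38390 is lowest at 24 h.

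Changes over time were tested directly. The As(V) change was lower at 24 h than at 1.5 h for 28 of the 50 members and higher for 9, beside 31.9% and 27.5% of all genes, 59.4% in all. With equal library totals 18 were lower, and the median difference of all tested genes moved from -0.03 to 0.59. The share of all genes called under that scaling is not given here. As deposited, the members whose change fell most were AT5G15180 (-3.65 ± 0.22), AT5G39580, AT2G38390 (-3.16 ± 0.16) and PRXCB (-3.14 ± 0.21). Those whose change rose most were AT2G41480, AT2G22420 (1.94 ± 0.26) and AT1G30870 (1.64 ± 0.17). Between 1.5 h and 6 h, 19 members were lower and 6 higher, beside 17.1% and 25.9% of all genes, 43.0% in all. Between 6 h and 24 h, 17 were lower and 15 higher, beside 34.9% and 26.4%, 61.3% in all.

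Mock roots changed too, and this enters the 24 h comparison, which shares those libraries. From 1.5 h to 24 h of mock, 14 members rose and 16 fell, beside 12.2% and 11.4% of all genes, 23.6% in all. From 6 h to 24 h, 20 rose and 4 fell, beside 13.3% and 9.92%, 23.2% in all. From 1.5 h to 6 h, 2 rose and 19 fell, beside 9.17% and 11.4%, 20.5% in all. AT5G19890 rose most between 6 h and 24 h (2.46 ± 0.12, adjusted p = 1.2e-06), followed by AT2G18150 (1.72 ± 0.16) and Prx37 (AT4G08770, 1.55 ± 0.15), whose mock level went from 242 and 239 FPKM to 684 and 729 FPKM. With As(V), Prx37 stood at 124 and 77.5 FPKM at 6 h and 242 and 214 FPKM at 24 h. PRXCB rose in mock by 1.27 ± 0.14 over the same interval, while its As(V) level went from 128 and 163 FPKM to 71.6 and 81.3 FPKM.

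Genes that work with the peroxidases were counted from lists of their own, to be read against the shares of all tested genes called higher and lower: 29.8% and 33.2% at 1.5 h, 35.5% and 37.0% at 6 h, and 29.1% and 36.0% at 24 h. RBOH genes encode the NADPH oxidases that supply superoxide, and of 8 tested of 10, 2 were higher and 5 lower at 1.5 h, 3 and 5 at 6 h, and 0 and 6 at 24 h. RBOHD, the oxidase of the defence burst, rose from 31.2 and 35.9 FPKM to 135 and 131 FPKM at 1.5 h and fell by 1.15 ± 0.15 at 24 h. RHD2 (RBOHC), the oxidase of root hair growth, was higher at 6 h, from 46.8 and 47.7 FPKM to 97.6 and 99.0 FPKM (1.04, adjusted p = 1.68e-08). With equal library totals its 6 h change was -0.15 (adjusted p = 0.0268). Of the 8 RBOH genes, 0 were then higher and 7 lower at 6 h, beside 16.4% and 68.9% of all tested genes. Genes of monolignol synthesis and laccases, which make and polymerise the lignin units, were lower for 16 and higher for 2 of 20 tested at 1.5 h, 15 and 4 at 6 h, and 15 and 1 at 24 h. Extensins and other wall proteins, which peroxidases cross-link, were lower for 14 and higher for 1 of 18 at 1.5 h, 14 and 2 at 6 h, and 18 and 0 at 24 h. EXT3, the most abundant of them in mock, stood at 9359 and 9206 FPKM in mock and 1525 and 1903 FPKM with As(V) at 24 h (-2.45 ± 0.09). Of 7 transcription factors tied to peroxidase or root hair genes, 5 were lower and 1 higher at 1.5 h, 5 and 2 at 6 h, and 6 and 0 at 24 h. At 6 h, 18 of the 18 wall protein genes and 7 of the 7 factors were lower with equal library totals. Under that scaling, 68.9% of all tested genes were lower and 16.4% higher at 6 h. RSL4, which promotes hair growth, changed by -1.95 and -1.78 at the first 2 times and stood at 18.3 and 18.8 FPKM against 16.2 and 13.7 FPKM at 24 h. GL2, the epidermal factor named in the study's title, changed by -1.36, -1.39 and -0.73.

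Promoters are shown for chosen related pairs whose changes had opposite signs at 1.5 h and 6 h. Other such pairs, as PRXCA and AT3G32980 (83.1% coding identity), are not shown. The words in brackets give the sign, and the 6 h change of AT5G64120 missed the threshold. Each holds the 250 bases before the annotated gene start in the RefSeq assembly TAIR10.1, 5′ to 3′ on the gene's strand, with capitals for matches to the W-box core TTGAC, the core of WRKY binding sites, on either strand.
AT5G39580 (higher), chr5:15849142-15849391, minus strand: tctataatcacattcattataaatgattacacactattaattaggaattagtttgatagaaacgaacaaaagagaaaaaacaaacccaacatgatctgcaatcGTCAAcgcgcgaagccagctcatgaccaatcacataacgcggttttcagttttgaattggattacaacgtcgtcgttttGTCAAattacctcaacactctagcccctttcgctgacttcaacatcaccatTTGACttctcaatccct
AT5G64120 (lower), chr5:25661008-25661257, minus strand: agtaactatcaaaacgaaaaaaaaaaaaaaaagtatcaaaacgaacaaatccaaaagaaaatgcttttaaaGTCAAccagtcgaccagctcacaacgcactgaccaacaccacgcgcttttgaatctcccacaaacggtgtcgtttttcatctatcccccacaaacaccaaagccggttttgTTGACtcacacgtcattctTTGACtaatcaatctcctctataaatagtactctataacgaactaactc
PRXCA (higher early), chr3:18200337-18200586, plus strand: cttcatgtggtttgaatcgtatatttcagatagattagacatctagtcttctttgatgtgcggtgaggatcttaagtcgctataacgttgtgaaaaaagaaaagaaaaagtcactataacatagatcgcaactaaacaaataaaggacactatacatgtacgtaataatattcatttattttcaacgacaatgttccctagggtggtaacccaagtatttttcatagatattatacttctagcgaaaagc
PRXCB (lower), chr3:18207401-18207650, plus strand: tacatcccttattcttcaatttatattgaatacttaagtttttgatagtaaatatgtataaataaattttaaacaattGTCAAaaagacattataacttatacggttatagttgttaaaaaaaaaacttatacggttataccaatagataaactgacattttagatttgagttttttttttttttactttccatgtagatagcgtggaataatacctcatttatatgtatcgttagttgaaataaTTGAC

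The window of AT5G39580 held 3 W-box cores and so did that of AT5G64120, although their changes at 1.5 h and 6 h had opposite signs. PRXCA had 0 and PRXCB 2. Over the family, 25 of 56 windows (44.6%) held the core, beside 44.9% of all 27443 promoters. The G-box CACGTG was in 0 members beside 6.5% of all promoters. The phosphate starvation motif P1BS, searched as GNATATNC, was in 2 (3.6%) beside 5.5%, and the heat shock element GAANNTTC in 3 (5.4%) beside 9.6%. A match describes letters only, and no match says only that these letters are not in this window.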

How the data were processed

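RNA-seq libraries from 12 root samples (TruSeq stranded mRNA, single-end reads of 50 bp, per the labels' protocols) were analysed from FPKM values as deposited by the authors. The submitters' processing notes name Trim Galore, STAR 2.5.4, HTSeq 0.6.0, edgeR and TAIR10, with no role or order, and whether counting used strand is not given in the sources used here. The 56 members, their role lists, the pathway lists and the markers were chosen with earlier results of these data known. All members may be named. Single changes were recomputed under every alternative for the 5 highest and 5 lowest called members at a time, with a mean of at least 5 FPKM and no overlap, and for the root hair members.

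Within a gene, FPKM values were whole multiples of a step (tolerance 0.05 reads), recovered for 14044 of 23664 genes (59.3%). The step fitted a length of exon bases minus 204, which gave estimated reads for 18908 further genes. These reads served for depth, shares and weights only, and no count test was run. All 12 libraries entered 1 fit, in which limma 3.58.1 (R 4.3.3) modelled log2(FPKM + 1) over 6 groups with voom precision weights and robust empirical Bayes (6 residual degrees of freedom, median prior 4.5). The filter kept 19983 genes with 1 FPKM or more in 2 or more libraries and 10 or more estimated reads in 2 or more. Benjamini-Hochberg adjustment ran over these genes in each comparison. Replicates correlated at 0.9865 to 0.9898 and differed beyond sampling noise (chi-square over degrees of freedom 1.48 to 4.46), so none was merged. Alternatives were no weights, pseudocounts of 0.1 and 5, no filter, equal library totals, median-of-ratios scaling, a replicate block, only the libraries compared, and each library left out. The scripts were tested on simulated data. Coding sequences and promoters came from RefSeq TAIR10.1 and all 56 identifiers matched; coding sequences were aligned pairwise with Biopython 1.88.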

Additional observations from a re-analysis of the deposited data

Results flagged for a closer look

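By limma's test (adjusted p under 0.05), the As(V) change differed between 24 h and 1.5 h for 18 members whose single changes were followed. Most of those followed were chosen for the highest or lowest changes at 1 time in these same libraries, which favours such differences. The other members followed, PER4 (AT1G14540), AT1G34510, AT2G39040 and AT4G36430, did not differ by this test. Of all tested genes, 59.4% differed in this comparison. The difference is the 24 h change minus the 1.5 h change, on the log2(FPKM + 1) scale. It was negative for AT5G15180 (-3.65), AT5G39580 (-3.28), AT2G38390 (-3.16), PRXCB (AT3G49120, -3.14), AT4G37520 (-2.93), AT1G14550 (-2.1), AT4G37530 (-1.76) and AT4G26010 (-1.48). Smaller negative differences were those of RHS19 (AT5G67400, -1.04), AT2G38380 (-0.81), AT5G64100 (-0.62), AT2G35380 (-0.58) and AT3G28200 (-0.42). It was positive for AT2G41480 (3.33), AT1G30870 (1.64), AT3G49960 (1.13), RHS18 (AT5G22410, 0.87) and AT5G19890 (0.71). The libraries' scaling moves with these differences: the median difference of all tested genes was -0.03 as deposited and 0.59 with equal library totals. With equal library totals, 18 members had a lower change at 24 h than at 1.5 h, in place of 28. The share of all tested genes under that scaling is not given here. Some small negative differences did not hold under it. The 24 h change was then above the 1.5 h change for AT5G64100 (-1.26 against -1.38), AT2G35380 (-3.15 against -3.21) and AT3G28200 (-0.32 against -0.61). No group had enough libraries to look for a library far from the others.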

How the results depend on the processing

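Of the counts of members called in 5 comparisons, 194 of 200 alternative values stayed within 1.5 times the reported count. The exceptions were 3 members called higher at 6 h (7 as deposited) and 18 called lower for the 24 h minus 1.5 h change (28), both with equal library totals, and 10 called lower in mock at 24 h against 1.5 h (16) both without weights and with only the libraries compared. Leaving out 1 library at a time gave 9 to 17 for that last count, with 9 both without replicate 2 of mock at 1.5 h and without replicate 1 of mock at 24 h. Among single members, the rises of AT4G37530 at 1.5 h and AT4G36430 at 6 h turned to -0.17 and -0.090 with equal library totals. The scalings differ only in the size given to each library; the cause of the other shifts was not tested. No pairing by replicate number was seen over all tested genes (correlations of same-numbered deviations -0.12 to 0.13 over 15 pairs, 2 above 0.1). Such correlations cannot exclude a pairing that touches a smaller set of genes. With the replicate block, 7 members were higher and 34 lower at 1.5 h, 7 and 32 at 6 h and 3 and 41 at 24 h. With 2 libraries a group, a lone library left by an omission was assumed to vary like the other groups. The 6 untested members were at or below 1.3 FPKM in every library; why they were low was not tested.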
